A study of Chlamydomonas reinhardtii with 12 samples.

Results

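The 3 genes described here, HSF1, HSP70A and HSP90A of the unicellular green alga Chlamydomonas reinhardtii, encode the main heat shock transcription factor and the cytosolic chaperones of the HSP70 and HSP90 families. They were taken by identifier from a deposited table of 17693 genes, and all 3 were present: Cre07.g354500_4532.v6.1 (HSF1), Cre08.g372100_4532.v6.1 (HSP70A) and Cre09.g386750_4532.v6.1 (HSP90A). The gene names belong to the chosen identifiers. The table holds identifiers alone and the RefSeq gene table (assembly Chlamydomonas_reinhardtii_v5.5) gives locus tags without symbols, so the names could not be checked against an annotation. In that RefSeq table the loci lie on chromosomes 7, 8 and 9, and 0 annotated genes overlapped any of them.

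The study examined the part of inositol pyrophosphates, signalling inositol phosphates with a diphosphate group, in the response to high light. Polyadenylated RNA was sequenced from the strain vip1-1, which lacks normal inositol pyrophosphate levels, and from wild type, both given as CC-1690 cells in the labels. The 4 groups of 3 biological replicates were vip1-1 in high light, vip1-1 in control light, wild type in high light and wild type in control light. All cells grew in liquid TAP medium, which contains acetate, at 25 °C, under 1500 µmol photons m-2 s-1 in high light and 50 µmol photons m-2 s-1 in control light, so that no group received a heat treatment by the labels. The duration of high light is not given in the sources used here, and vip1-1 is a single strain, so that other differences between the strains cannot be told apart from the lack of inositol pyrophosphates. The sources used here do not pair the gene affected in vip1-1 with an identifier of the table, and its level was not analysed here.

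Heat shock factors are transcription factors that bind heat shock elements in the promoters of chaperone genes when unfolded proteins build up. HSP70 proteins bind unfolded stretches of client proteins in cycles driven by ATP, and HSP90 proteins act later in folding, on kinases and transcription factors among other clients. In Chlamydomonas, HSF1 is needed for survival of heat stress, its own transcript is raised by heat, and HSP70A is known as a gene that responds to light as well as to heat.

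In wild type, high light moved the transcripts of the regulator and of HSP70A in opposite directions, while in vip1-1 the light effect was called for HSF1 alone of the 3. HSF1 rose in both strains, with FPKM (fragments per kilobase of transcript, scaled to the mapped fragments of the library) averaging 2.34 times the control level in vip1-1 and 2.08 times in wild type. Of all tested genes, 37.4% in vip1-1 and 44.7% in wild type were also called higher in high light. The median gene rose too, by 0.38 in vip1-1 and 0.39 in wild type on the log2 scale. HSP70A fell in wild type, to 62.8 FPKM in high light against 109 FPKM in control light. Genes called lower in wild-type high light made up 13.7% of those tested. HSP90A was higher in vip1-1 than in wild type in high light, at 85.4 against 49.6 FPKM, a call that was lost without vip1-1 high light replicate 1 or without wild-type high light replicate 3. That comparison called 12.1% of all tested genes higher. In bulk RNA, fewer cells with a transcript and less transcript per cell cannot be told apart. None of the 3 had an interaction of strain and light past the threshold, which 8.71% of all tested genes passed.

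Levels per length separated the transcription factor from the chaperones. Ranked by FPKM among all 17693 genes of a library, HSP70A took places 452 to 1011 and HSP90A places 455 to 1667 over the 12 libraries, while HSF1 took places 6282 to 9143. HSF1 stayed below the median FPKM of the tested genes in its library on average, at 0.79 ± 0.047 times that median in vip1-1 high light, 0.49 ± 0.069 in vip1-1 control, 0.89 ± 0.18 in wild-type high light and 0.62 ± 0.042 in wild-type control (SD, n = 3 each). The 3 genes had values above 0 in all 12 libraries.

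**Figure D1:**
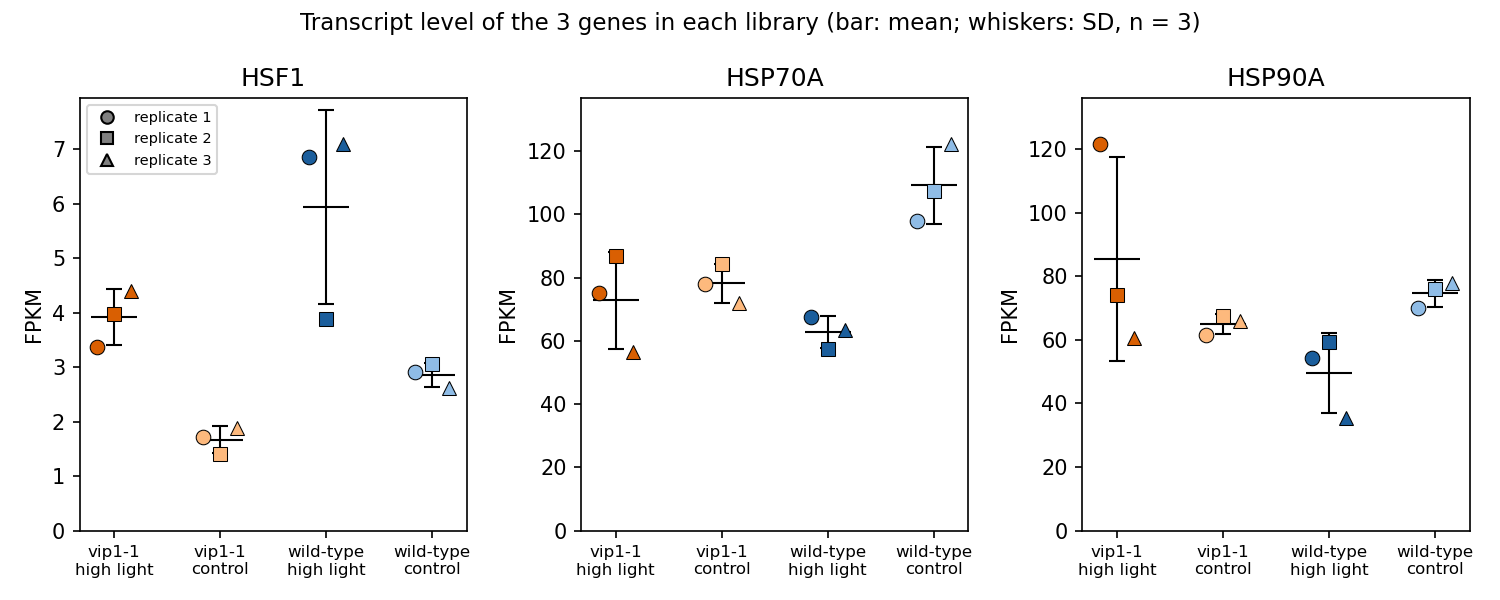
FPKM of HSF1, HSP70A and HSP90A (y axis, linear from 0) in each of the 12 libraries, by group (x axis). Points are libraries with a symbol for each replicate number, the horizontal bar is the group mean and the whiskers are SD (n = 3). HSF1 is higher in high light than in control light in both strains, HSP70A is highest in wild-type control, and vip1-1 high light replicate 1 stands highest for HSP90A at 122 FPKM.

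The FPKM of HSF1 was 3.37, 3.97 and 4.39 in vip1-1 under high light and 1.71, 1.40 and 1.89 in vip1-1 under control light. The lowest high light value of vip1-1 lay above the highest control value. In wild type it stood at 6.85, 3.88 and 7.09 FPKM in high light and at 2.90, 3.06 and 2.62 FPKM in control light. These groups did not overlap either, and high light replicate 2 was the closest to the control libraries. Of all tested genes, 49.1% in vip1-1 and 49.8% in wild type were also higher in high light without overlap.

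The log2 change of HSF1 on the scale of log2(FPKM + 1) was 0.88 in vip1-1 (SE 0.19, 95% confidence interval 0.46 to 1.29, limma adjusted p = 0.00552). In wild type it was 0.81 (SE 0.19, interval 0.40 to 1.23, limma adjusted p = 0.00378). These p-values come from limma fitted to all 12575 tested genes with Benjamini-Hochberg adjustment over all of them, and a change was called at an adjusted p under 0.05. They measure the spread between the replicates that the labels call biological. The exact two-sided permutation p was 0.1 in each strain, the smallest that 3 libraries against 3 can give.

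The median gene was higher in high light, so each change is also given relative to the median gene. Over all tested genes the median log2 change was 0.38 in vip1-1 and 0.39 in wild type, and HSF1 lay 0.50 above it in vip1-1 and 0.42 above it in wild type. Genes called higher in high light made up 37.4% of those tested in vip1-1 and 44.7% in wild type. After centring the libraries on their medians, the HSF1 change was 0.45 in vip1-1 (limma adjusted p = 0.0460) and 0.39 in wild type (limma adjusted p = 0.0372). The direction and the call of HSF1 in both strains were kept in every alternative that tested it and in each of the 12 fits without 1 library. With 0.1 added in place of 1, which understates the change of a weakly expressed gene less, the log2 changes were 1.18 in vip1-1 and 0.98 in wild type.

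Between the strains, HSF1 was lower in vip1-1 in control light, at 1.67 ± 0.24 against 2.86 ± 0.22 FPKM in wild type (SD, n = 3 each). The log2 difference was -0.53 (SE 0.19, interval -0.95 to -0.12, limma adjusted p = 0.0499), at the edge of the threshold. The median gene was itself lower in vip1-1, by a log2 difference of -0.29, and genes called lower made up 26.0% of those tested. After median centring the HSF1 difference was -0.19 (limma adjusted p = 0.355), and the call was also lost in 9 of the 12 fits without 1 library. In high light HSF1 stood at 3.91 ± 0.51 FPKM in vip1-1 and 5.94 ± 1.79 FPKM in wild type (SD, n = 3 each), and the groups overlapped. That difference, -0.47 (SE 0.19, interval -0.88 to -0.05), did not pass the threshold (limma adjusted p = 0.0623). It did in 1 of the 12 fits without 1 library, that without wild-type high light replicate 2 (-0.70, limma adjusted p = 0.00171). After median centring it was -0.12 (limma adjusted p = 0.494), and after quantile normalization -0.12 (limma adjusted p = 0.516). The median log2 difference of all tested genes in high light was -0.28.

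The interaction of HSF1, its light effect in vip1-1 less that in wild type, was 0.07 (SE 0.26, limma adjusted p = 0.90). Its interval ran from -0.52 to 0.65 on the log2 scale, so that a difference in light response of that size in either direction was within the error. The order of HSF1 levels was wild-type high light, vip1-1 high light, wild-type control and vip1-1 control. Of the neighbours in that order, the first pair did not differ past the threshold and the last pair did. The pair in the middle differs in both strain and light and was not tested.

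The FPKM of HSP70A was 75.1, 86.9 and 56.5 in vip1-1 under high light and 78.1, 84.3 and 72.1 in vip1-1 under control light. These groups overlapped, with high light libraries both above and below the control values. In wild type it stood at 67.7, 57.4 and 63.4 FPKM in high light and at 98.1, 107 and 122 FPKM in control light. Every wild-type high light library lay below every wild-type control library, as for 16.8% of all tested genes.

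In wild type HSP70A fell by 0.79 on the log2 scale (SE 0.16, interval -1.14 to -0.43, limma adjusted p = 0.00186), which placed it -1.18 from the median gene. Of the tested genes, 11.1% had a more negative log2 change, and genes called lower made up 13.7%. The fall was called in each of the alternatives, with log2 changes from -1.21 under median centring to -0.61 after rescaling every library to the same FPKM sum, and in each of the 12 fits without 1 library. In vip1-1 the log2 change was -0.12 (SE 0.16, interval -0.47 to 0.23, limma adjusted p = 0.565), which placed it -0.50 from the median gene. Genes called lower made up 4.09% of those tested in vip1-1. After median centring the vip1-1 change was -0.55, just short of the threshold (limma adjusted p = 0.0540).

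In control light HSP70A was lower in vip1-1, at 78.2 ± 6.14 against 109 ± 12.2 FPKM in wild type (SD, n = 3 each). The log2 difference was -0.47 (SE 0.16, interval -0.83 to -0.12, limma adjusted p = 0.0435), without overlap of the groups, and lay -0.19 from that of the median gene. It was -0.13 after median centring (limma adjusted p = 0.638), and the call was lost in 8 of the 12 fits without 1 library. Of all tested genes, 48.1% were lower in vip1-1 in control light without overlap. In high light HSP70A averaged 72.8 ± 15.3 FPKM in vip1-1 and 62.8 ± 5.18 FPKM in wild type (SD, n = 3 each). That log2 difference was 0.19 (SE 0.16, interval -0.16 to 0.55, limma adjusted p = 0.354), and after median centring it was 0.53 and past the threshold (limma adjusted p = 0.0308).

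The light effect on HSP70A was less negative in vip1-1 than in wild type by 0.67 (SE 0.23, interval 0.16 to 1.17), which did not pass the threshold (unadjusted p = 0.0140, limma adjusted p = 0.0960). Without vip1-1 high light replicate 3, which had the lowest HSP70A value of its group, the interaction was 0.84 and passed it (limma adjusted p = 0.0199). In the other 11 fits without 1 library the interaction did not pass. Wild-type control was the highest group, followed by vip1-1 control, vip1-1 high light and wild-type high light. The step from wild-type control to vip1-1 control was called, and the later steps were not.

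HSP90A varied more between the libraries in high light than between those in control light. Its FPKM was 122, 74.1 and 60.7 in vip1-1 under high light and 61.6, 67.5 and 66.0 in vip1-1 under control light. The lowest high light library lay below all vip1-1 controls and the other two above them. In wild type it stood at 54.3, 59.2 and 35.4 FPKM in high light and at 69.9, 76.0 and 78.0 FPKM in control light, and these groups did not overlap. Of all tested genes, 16.8% were lower in wild-type high light without overlap.

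The SD of HSP90A on the log2 scale was 0.51 in vip1-1 high light, above that of 78.2% of the tested genes, and 0.07 in vip1-1 control, above that of 20.9%. In wild type the SD was 0.39 in high light and 0.08 in control light. The median SD of all tested genes was also larger in high light, at 0.27 against 0.13 in vip1-1 control and 0.25 against 0.13 in wild-type control. Library vip1-1 high light replicate 1, the highest for HSP90A, also held the most genes listed at 0 with an FPKM of 1 or more in the other two libraries of that group (177, against 4 to 94 in the other 11 libraries). The part of that library's composition in the HSP90A value was not tested.

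In high light HSP90A was higher in vip1-1, at 85.4 ± 32.0 against 49.6 ± 12.5 FPKM in wild type (SD, n = 3 each). The log2 difference was 0.74 (SE 0.25, interval 0.20 to 1.28, limma adjusted p = 0.0291), 1.02 above the median gene and larger than those of 91.4% of the tested genes. Genes called higher in vip1-1 in high light made up 12.1% of those tested and genes called lower 34.4%. The difference was 0.46 without vip1-1 high light replicate 1 (limma adjusted p = 0.0888) and 0.52 without wild-type high light replicate 3 (limma adjusted p = 0.108). In a fit of the 6 high light libraries alone it was not past the threshold (limma adjusted p = 0.129). In control light HSP90A averaged 65.0 ± 3.09 FPKM in vip1-1 and 74.6 ± 4.20 FPKM in wild type (SD, n = 3 each), a log2 difference of -0.20 (interval -0.74 to 0.35, limma adjusted p = 0.572). These control groups did not overlap (exact permutation p = 0.1, the smallest possible), and 48.1% of all tested genes were likewise lower in vip1-1 without overlap. In a fit of the 6 control light libraries alone the difference was not past the threshold (limma adjusted p = 0.0594).

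The light effect on HSP90A was not called in either strain with all libraries. In vip1-1 it was 0.33 (SE 0.25, interval -0.22 to 0.87, limma adjusted p = 0.297), close to the median gene at -0.05 from it, and 0.04 without high light replicate 1. In wild type it was -0.61 (SE 0.25, interval -1.15 to -0.07, limma adjusted p = 0.0524), -1.0 from the median gene. The wild-type change passed the threshold after median centring (-1.03, limma adjusted p = 0.0178) and after quantile normalization (-1.07, limma adjusted p = 0.00855). It also passed in 3 of the 12 fits without 1 library. These lacked wild-type high light replicate 2 (-0.75, limma adjusted p = 0.0334), vip1-1 high light replicate 1 (-0.61, limma adjusted p = 0.0133) or vip1-1 high light replicate 3 (-0.61, limma adjusted p = 0.0336). Leaving out a vip1-1 library changed the error and not the estimate. The change was -0.39 without wild-type high light replicate 3 (limma adjusted p = 0.191). It was -0.43 after rescaling every library to the same FPKM sum (limma adjusted p = 0.130). The interaction was 0.94 (SE 0.35, interval 0.17 to 1.70, unadjusted p = 0.0212, limma adjusted p = 0.123), and 1.15 and past the threshold without vip1-1 high light replicate 3 (limma adjusted p = 0.0476). It was not past the threshold in the other 11 fits without 1 library. From highest to lowest the groups were vip1-1 high light, wild-type control, vip1-1 control and wild-type high light. The first pair differs in both strain and light and was not tested, as was the last pair, and the pair in the middle did not differ past the threshold.

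**Figure D2:**
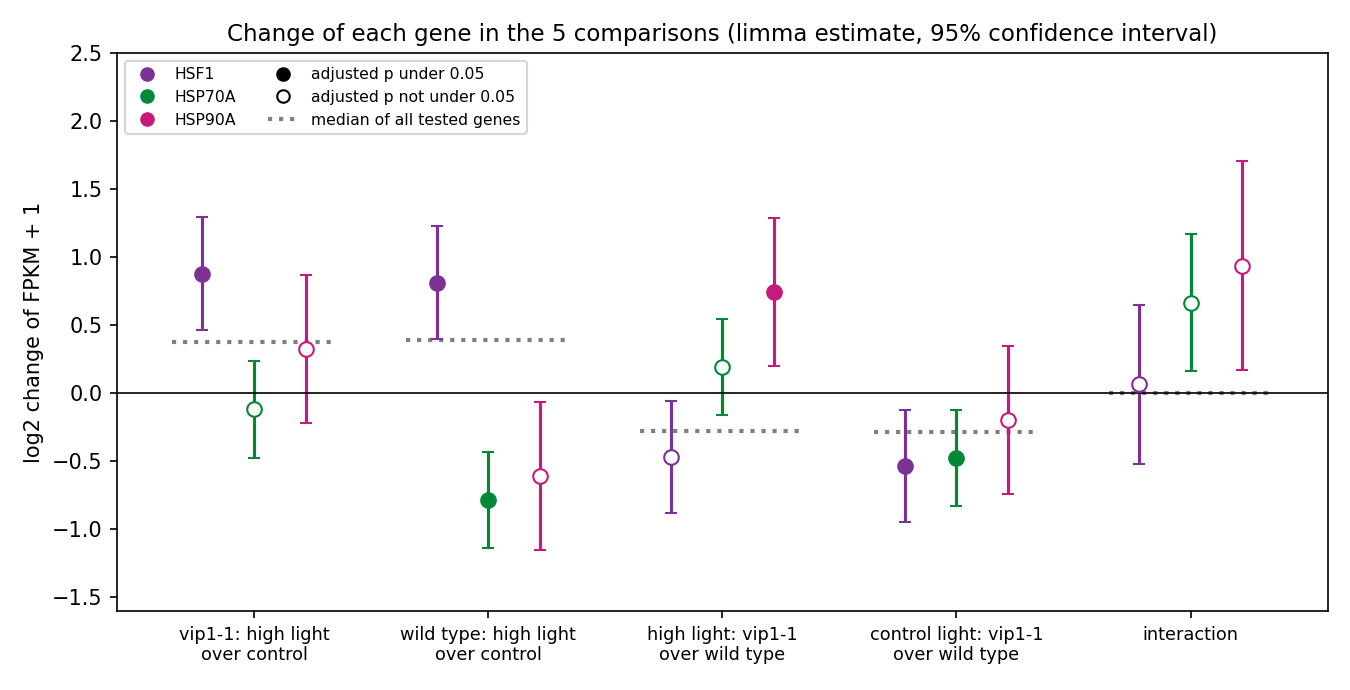
Log2 change of FPKM + 1 (y axis) of HSF1, HSP70A and HSP90A in the 5 comparisons (x axis), as the limma estimate with its 95% confidence interval. Filled points have an adjusted p under 0.05 over all tested genes, open points do not, and the dotted line is the median of all tested genes. HSF1 is raised by light in both strains (0.88 and 0.81), HSP70A is lowered in wild type (-0.79), and HSP90A is higher in vip1-1 in high light (0.74).

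Counted by comparison, 1 of the 3 genes was called for the light effect in vip1-1, where 41.5% of all tested genes were called, and 2 of 3 in wild type, where 58.4% were. Between the strains, 1 of 3 was called in high light (46.4% of all tested genes) and 2 of 3 in control light (32.4%). In the interaction 0 of 3 were called by limma after adjustment, while 8.71% of all tested genes were called, 3.82% with a positive and 4.89% with a negative interaction. An unadjusted p under 0.05 was held by 2 of 3, and the share of all tested genes at that looser threshold was not computed. With 3 genes, these counts are not set apart from the background shares. The comparisons share libraries, each group entering 2 of the 4 pairwise contrasts.

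Ratios between the genes within a library do not depend on how that library was scaled. The log2 ratio of HSF1 to HSP70A was -4.48, -4.45 and -3.68 in vip1-1 high light and -5.51, -5.91 and -5.26 in vip1-1 control. In wild type it was -3.30, -3.88 and -3.16 in high light and -5.08, -5.14 and -5.55 in control light. High light and control libraries did not overlap in either strain. The mean log2 ratio was higher in high light by 1.35 in vip1-1 and by 1.80 in wild type, each with an exact two-sided permutation p of 0.1, the smallest possible with 3 libraries against 3. The ratio of HSF1 to HSP90A was higher in high light by 1.63 in wild type without overlap (exact permutation p = 0.1), and by 0.90 in vip1-1 with overlap (exact permutation p = 0.3).

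The ratio of HSP70A to HSP90A showed no such shift with light. It was 0.62, 1.17 and 0.93 in vip1-1 high light, 1.27, 1.25 and 1.09 in vip1-1 control, 1.25, 0.97 and 1.79 in wild-type high light, and 1.40, 1.41 and 1.57 in wild-type control. The mean log2 ratio in high light minus that in control light was -0.45 in vip1-1 (exact permutation p = 0.2) and -0.17 in wild type (exact permutation p = 0.7), with overlap in both. In control light the ratio was lower in vip1-1 without overlap, a log2 difference of -0.28 (exact permutation p = 0.1, the smallest possible), and in high light the difference was -0.56 with overlap (exact permutation p = 0.2). Between strains, HSF1 to HSP70A differed by -0.31 in control light (exact permutation p = 0.3) and -0.75 in high light (exact permutation p = 0.2), with overlap in both. HSF1 to HSP90A was lower in vip1-1 by 0.59 in control light without overlap (exact permutation p = 0.1). In high light it differed by -1.31 with overlap (exact permutation p = 0.2). The ratios with HSF1 were not in the original plan. The 12 ratio tests cannot reach 0.05 at this group size.

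**Figure D3:**
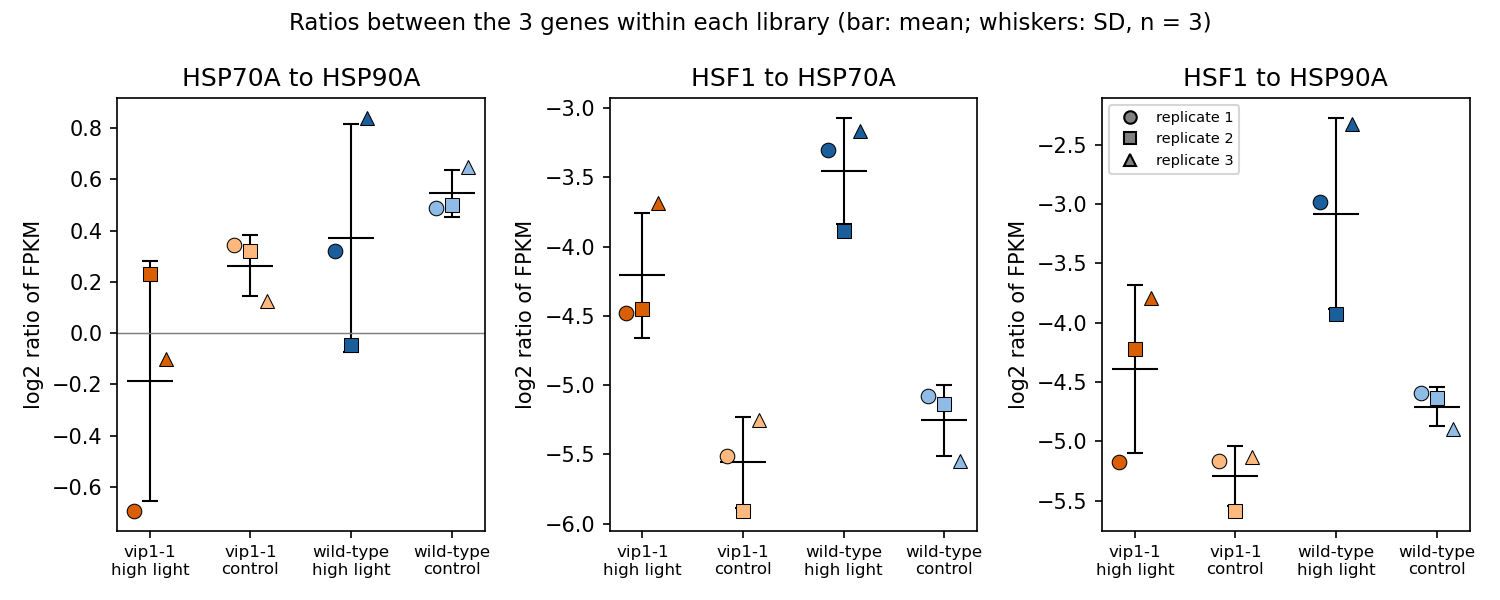
Log2 ratio of FPKM between the genes within each library (y axis) by group (x axis), for HSP70A to HSP90A, HSF1 to HSP70A and HSF1 to HSP90A. Points are libraries, bars are group means and whiskers are SD (n = 3). The ratio of HSF1 to HSP70A is higher in high light in every library of both strains, while HSP70A to HSP90A overlaps between light levels.

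The genes most similar in pattern were sought by Pearson's r of log2(FPKM + 1) over the 12 libraries, which share 4 group means and the scaling of each library, so that r is given as a description. HSF1 had 1549 tested genes with r above 0.9, HSP70A had 83 and HSP90A had 7. The nearest to HSF1 was Cre17.g697950_4532.v6.1 (r = 0.988), with log2 light changes of 0.92 in vip1-1 and 0.75 in wild type. The nearest to HSP70A was Cre13.g588050_4532.v6.1 (r = 0.969), with -0.43 in vip1-1 and -2.08 in wild type. The nearest to HSP90A was Cre03.g145247_4532.v6.1 (r = 0.979), with 0.15 in vip1-1 and -0.53 in wild type. The next nearest pair of each gene had r of 0.982 and 0.982 for HSF1, 0.959 and 0.954 for HSP70A, and 0.956 and 0.952 for HSP90A. The sources used here give no names for these identifiers.

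A list of 17 other identifiers, drawn up from general knowledge as further heat shock and chaperone loci of the cytosol, endoplasmic reticulum, mitochondrion and chloroplast, was set beside the 3 genes. Neither the table nor the RefSeq table names them, so their membership rests on that list alone. It was chosen with earlier results of these data known, so its counts and medians are given as a description. All 17 were in the table and 15 passed the filter on low values, which required 3 or more libraries to reach an FPKM of 1. The other 2 reached at most 1.25 FPKM in any library.

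In high light, 9 of the 15 listed genes were called higher in vip1-1 than in wild type, 0 were called lower and 6 were not called (limma). Of all tested genes 12.1% were called higher and 34.4% lower. The number called higher was 5 with only the 2 groups in the fit and 14 without wild-type high light replicate 2. Over all tested genes, 801 of 12575 were called higher in the first of these fits and 1536 of 12443 in the second. Of the 15, 11 had an unadjusted p under 0.05 with a positive difference and 1 with a negative one. The share of all tested genes at that unadjusted threshold was not computed. The median log2 difference of the 15 was 0.62, while that of all tested genes was -0.28. HSP90A, with 0.74, lay near the list's median, while HSP70A at 0.19 and HSF1 at -0.47 lay below it. In control light 5 were called higher and 0 lower in vip1-1 (limma), with a median of 0.18 against -0.29 for all genes. Genes called higher made up 6.39% of all tested genes and genes called lower 26.0%. At an unadjusted p under 0.05 the listed counts were 5 and 1, again without a share of all tested genes. Cre02.g080600_4532.v6.1 had the largest called difference in high light, with 1.49, 11.8 and 11.4 FPKM in vip1-1 against 0.41, 0.40 and 0.44 FPKM in wild type (log2 difference 2.37, limma adjusted p = 0.00282). Cre06.g309100_4532.v6.1 was called in both light levels, at 34.5 ± 5.01 FPKM in vip1-1 against 18.2 ± 3.87 FPKM in wild type in high light and at 34.4 ± 1.37 against 9.67 ± 0.98 FPKM in control light (SD, n = 3 each).

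The light effect was called for shares of the listed genes near those of all tested genes. In vip1-1, 6 of 15 were called higher and 1 lower, or 46.7% against 41.5% of all tested genes, with a median log2 change of 0.17. In wild type 5 were called higher and 4 lower, or 60% against 58.4% of all tested genes, with a median of 0.00. Both medians were below those of all tested genes (0.38 and 0.39). By direction, genes called higher and lower made up 37.4% and 4.09% of all tested genes in vip1-1, and 44.7% and 13.7% in wild type. Cre14.g617400_4532.v6.1 rose in both strains, with log2 changes of 2.71 in vip1-1 (limma adjusted p = 0.00281) and 2.28 in wild type (limma adjusted p = 0.00243). Cre07.g339150_4532.v6.1 fell in wild type, to 25.6 ± 17.6 FPKM in high light against 125 ± 9.83 FPKM in control light (SD, n = 3 each, log2 change -2.43, limma adjusted p = 0.000226). Cre07.g341600_4532.v6.1 fell in both strains, by 0.64 on the log2 scale in vip1-1 (limma adjusted p = 0.0345) and by 1.35 in wild type (limma adjusted p = 0.000409). After median centring the light calls were 2 higher and 2 lower in vip1-1, and 2 higher and 6 lower in wild type. Of the 12575 tested genes, 878 were then higher and 1363 lower in vip1-1, and 2938 higher and 3381 lower in wild type.

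**Figure D4:**
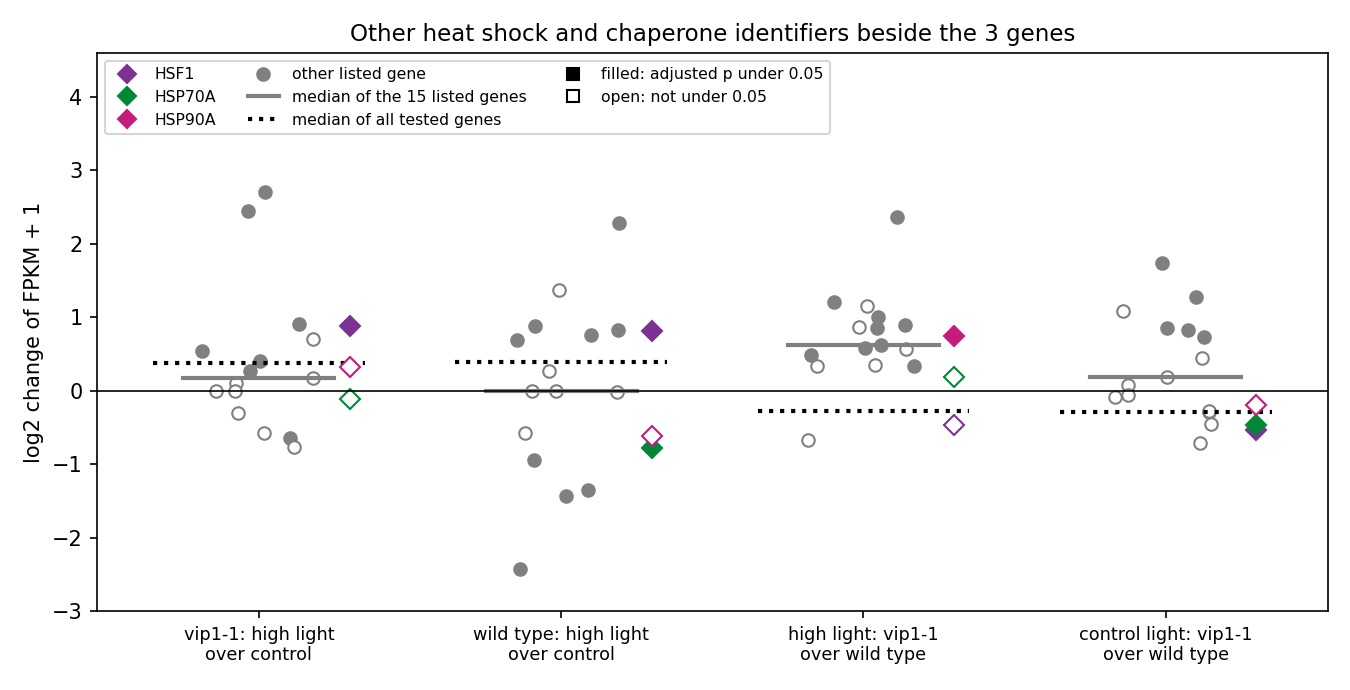
Log2 change of FPKM + 1 (y axis) of the 15 tested listed genes (circles) beside HSF1, HSP70A and HSP90A (diamonds) in the 4 pairwise comparisons (x axis). Filled symbols have a limma adjusted p under 0.05, the grey bar is the median of the 15 genes and the dotted line the median of all tested genes. In high light the list's median for vip1-1 over wild type is 0.62 and that of all tested genes is -0.28.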

How the data were processed

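The authors deposited 1 table of FPKM values per gene and library, per the file headers. HISAT2 and StringTie are named in the submitters' processing notes, without version or role; the genome build, any filter and the handling of strand or of reads shared between related chaperone genes are not given in the sources used here. Libraries followed a stranded mRNA protocol, per the labels. The identifiers carry the suffix of annotation 4532.v6.1. The HSF1 values carry more than 6 decimals, as do 6218 of the 17693 rows, while HSP70A and HSP90A have 6; how the authors combined values in such rows is not given in the sources used here. Whole reads could not be recovered: among FPKM up to 0.15, the most common ratio between 2 libraries held 1.02% to 2.60% of the genes over the 66 pairs of libraries. Sequencing depth is thus unknown, no counting interval is given, and the precision rests on 3 replicates.

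FPKM sums ranged from 651369 to 767459 per library. Pearson's r of log2(FPKM + 1) between libraries ran from 0.931 to 0.988 within groups and from 0.779 to 0.956 between groups.

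Values were transformed to log2(FPKM + 1), which understates changes of weakly expressed genes. The 12575 genes that reached an FPKM of 1 in 3 or more of 12 libraries entered 1 limma fit (limma 3.58.1, R 4.3.3) with 4 group means, a variance trend, two-sided tests and Benjamini-Hochberg adjustment over all tested genes. The fit was run on simulated data with independent normal noise of equal spread in all groups and a small share of genes changed in wild-type high light alone. The wider spread in high light and the shift of the median gene were not simulated, so that run does not cover them. Exact permutation tests used scipy 1.17.1 and figures matplotlib 3.10.9 (Python 3.11.15). Alternatives were other pseudocounts (0.1, 5), filters, scalings and variance models, the 2 groups alone, a block for replicate number, and fits without each library. One more, leaving out 2 libraries together, was chosen after seeing the data. The members and lists were chosen with earlier results of these data known. Named genes are the members, the nearest gene to each by r, and, for each pairwise comparison and direction, the listed gene with the largest called change without overlap; the others are not printed because no source used here names them.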

Additional observations from a re-analysis of the deposited data

Results flagged for a closer look

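Among HSF1, HSP70A, HSP90A and the 15 other listed genes tested, Cre12.g514850_4532.v6.1 was the 1 with a light effect that differed between the strains by limma's interaction term (-0.50, SE 0.13, adjusted p = 0.0430, over 12575 genes). It stood at 43.2, 46.0 and 41.1 FPKM in vip1-1 high light and at 34.8, 36.8 and 36.3 FPKM in vip1-1 control, against 35.5, 33.0 and 34.2 FPKM in wild-type high light and 19.9, 19.6 and 19.8 FPKM in wild-type control. Levels were higher in high light in all libraries of both strains, as for 49.1% of tested genes in vip1-1 and 49.8% in wild type. The log2 change of this gene was smaller in vip1-1. This is 1 of 18 genes, while 8.71% of all tested genes had a called interaction. The call was lost in 10 of the 12 fits without 1 library (interaction -0.54 to -0.46, limma adjusted p 0.0242 to 0.108 over the 12) and kept only without wild-type high light replicate 2 or vip1-1 high light replicate 1. It was also lost in 4 of the 10 other alternatives: median centring, quantile normalization, array weights and the replicate block (limma adjusted p 0.0215 to 0.230 over the 10).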

How the results depend on the processing

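The raised HSF1 in both strains and the lowered HSP70A in wild type kept their direction and their call in all alternatives that tested them; HSF1, with a mean FPKM under 5, had no value under that filter. Of 15 tests on the 3 genes 6 were called as reported, 4 with the replicate block and 4 to 8 without 1 library. Replicate numbers did not pair the libraries: 4 of 18 same-numbered pairs had deviations correlated above 0.1, and the best match had the same number in 7 of 36 cases. The replicate block lost the control-light strain differences of HSF1 (-0.53, limma adjusted p = 0.0612) and HSP70A (-0.47, limma adjusted p = 0.0683). The same HSF1 difference was also not past the threshold with pseudocount 5 (-0.24), no filter (-0.53), median centring (-0.19), quantile normalization (-0.15) or equal FPKM sums (-0.60), and that of HSP70A under median centring (-0.13). The cause was not tested for any of these.

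The wild-type light effect on HSP90A passed the threshold under median centring (-1.03), quantile normalization (-1.07), array weights (-0.82, a fit that stopped before convergence) and with the 2 groups alone (-0.61). It did not pass in the other 7 of these 11 alternatives. Fitting the 2 groups alone lost the high-light strain difference of HSP90A (0.74). Array weights also called HSP90A between strains in control light (-0.25) and the interactions of HSP70A (0.83) and HSP90A (1.07). Quantile normalization called the HSP70A interaction (0.86), median centring the HSP70A strain difference in high light (0.53), and equal FPKM sums the HSF1 strain difference in high light (-0.57). Signs turned, without a call, for HSP70A under light in vip1-1 with equal FPKM sums (0.0068) and array weights (0.039), for HSP90A after median centring under light in vip1-1 (-0.10) and between strains in control light (0.15), and for the HSF1 interaction with pseudocount 5 (-0.047).

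Without 1 library in turn, HSF1 ranged from 0.68 to 1.05 for light in wild type, 0.81 to 0.96 for light in vip1-1, -0.59 to -0.46 between strains in control light, -0.70 to -0.34 in high light and -0.17 to 0.19 for the interaction. HSP70A ranged from -0.86 to -0.70, -0.26 to 0.050, -0.55 to -0.39, 0.05 to 0.36 and 0.53 to 0.84 in the same order. HSP90A ranged from -0.75 to -0.39, 0.04 to 0.54, -0.24 to -0.16, 0.46 to 0.95 and 0.65 to 1.15. The log2 ratio of HSP70A to HSP90A ranged from -0.41 to 0.035 for light in wild type, -0.66 to -0.20 for light in vip1-1, -0.32 to -0.21 between strains in control light and -0.77 to -0.31 in high light. Without both vip1-1 high light replicate 1 and wild-type high light replicate 2, HSP90A under light in wild type (-0.75) and the HSF1 strain difference in high light (-0.62) passed the threshold, and the HSF1 interaction was -0.09.

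Listed genes called higher and lower under light in wild type, 5 and 4 as reported, were 2 and 6 under median centring and 2 and 7 under quantile normalization. Over all tested genes the calls were 5618 and 1728 as reported, 2938 and 3381 under median centring, and 3568 and 2942 under quantile normalization. In vip1-1, 6 and 1 as reported became 2 and 2 under median centring and 2 and 1 under quantile normalization, and 0 were lower with equal FPKM sums. Over all tested genes the calls were 4709 and 514 as reported, 878 and 1363 under median centring, and 1036 and 865 under quantile normalization. With equal FPKM sums 387 were lower. Equal FPKM sums called 1 listed gene lower in vip1-1 in each light level, beside 3441 of all tested genes in control light and 4853 in high light. Interactions, 0 positive and 1 negative as reported, were 0 and 0 under median centring, 2 and 0 under quantile normalization, and 0 and 2 with equal FPKM sums. Over all tested genes these were 480 and 615 as reported, then 457 and 679, 539 and 714, and 392 and 614 in the same order. Between strains in high light 8 to 13 listed genes were called higher over the 3 scalings, 5 with only the 2 groups compared and 7 to 14 without 1 library. Of all tested genes, 1516 were higher as reported, 2883 under median centring, 2517 under quantile normalization, 1337 with equal FPKM sums and 801 with 2 groups. In control light the 2-group fit called 7 listed genes higher and 4 lower, beside 1491 and 5365 of all tested genes. Without 1 library 0 to 3 listed genes were called lower in control light, and 0 to 4 under light in vip1-1. The highest counts came without wild-type high light replicate 2, where 3768 and 633 of all tested genes were called lower.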
